A study of Homo sapiens with 10 samples.

Results

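S100 proteins and annexins were followed as a set of 31 protein-coding genes, 19 S100 genes and 12 annexins, among 57773 gene rows measured in BEAS-2B cells. The members were defined by symbol and biotype: S100 followed by A and a number, or by B, P, Z or G, and ANXA followed by a number. The set was chosen with earlier results of these data known. BEAS-2B is an immortalised human bronchial epithelial cell line. One group carried an empty vector and the other a TAF1C vector, for which the labels name a pCMV6 promoter, and all cells were stable lines kept under G418 selection in LHC9 medium with serum. The TAF1C protein belongs to the SL1 complex, which brings RNA polymerase I to ribosomal RNA genes. Long RNA after ribosomal depletion was sequenced from 2 empty vector and 3 TAF1C libraries, with 22809601 to 37533366 gene counts each. The labels do not say whether the libraries came from separate cultures or clones, so every p measures the spread between these libraries, which may be technical. A fit without an empty vector library has no spread within that group, so its p and calls rest on the TAF1C libraries alone.

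S100 proteins are small calcium sensors of the EF-hand type that mostly work as dimers. On binding calcium they open a hydrophobic face and hold partner proteins such as annexins, myosins and p53, and several are secreted and act on receptors such as RAGE and TLR4. Annexins bind acidic phospholipids in a calcium-dependent way and take part in membrane repair, in the handling of vesicles and in the link between membrane and actin. The families meet in known pairs, such as S100A10 with annexin A2, S100A11 with annexin A1, and S100A6 with annexin A11. Most S100 genes lie in a cluster on chromosome 1, and many are used as markers of epithelial tumours.

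TAF1C mRNA did not separate the groups. Its level was 63.9 and 77.1 CPM (counts per 1000000 counts, TMM scaled) with the empty vector against 63.5, 58.5 and 66.5 CPM in the TAF1C libraries. Its fitted log2 difference was -0.17 ± 0.13 (SE; edgeR, adjusted p = 0.353), and an exact permutation test of the difference in CPM, counting both sides, gave 0.4, where 0.2 is the smallest value possible. The group names used here are those of the labels. The empty vector libraries differed from one another more than the others did, with an SD of the log2 difference over tested genes of 1.08, against 0.383 to 0.416 between libraries labelled TAF1C. They also held retinal and neuronal transcripts: 19 photoreceptor and retina markers summed to 2493 and 2179 CPM there and to 22.3 to 30.4 CPM with TAF1C, and 14 of the 17 tested were lowered. Markers under 1 CPM with TAF1C pass the filter only through both empty vector libraries, so 10 retina markers remained tested without empty vector replicate 1, of which 7 were lowered, and 11 without replicate 2, of which 11 were lowered. In the same way, 10 neuron markers summed to 338 and 241 CPM against 6.62 to 6.69 CPM, with 7 of 7 tested lowered, and only 2 of them could be tested, and were lowered, without either of the empty vector libraries. No marker of these lists was at 0 in every library of a group. The 10 airway epithelium markers summed to 625 and 556 CPM and then 1703 to 1794 CPM, more than any other from KRT7 (221 and 245 CPM, then 959 to 1054 CPM). This sum also holds VIM (112 and 139 CPM, then 244 to 269 CPM) and CDH2 (152 and 59.7 CPM, then 107 to 116 CPM). Neither gene is particular to epithelium. Of 9 tested, KRT7, KRT8, KRT18 and the mesenchymal filament gene VIM were raised, EPCAM was lowered and 4 were not called, among them CDH1 (0.352 to 2.95 CPM) and KRT19 (0.388 to 4.35 CPM). EPCAM was at 14.6 and 1.09 CPM with the empty vector and near 0 (0.0566 to 0.429 CPM) with TAF1C. These marker levels run along the same split as the comparison, their part in the results was not tested, and in bulk RNA fewer cells of a type and less RNA per cell cannot be told apart.

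Of the 20 members with at least 1 CPM in at least 2 libraries, 10 were raised in the libraries labelled TAF1C and 0 were lowered. The raised S100 genes numbered 6 of 10 tested: S100P, S100A11, S100A16, S100A13, S100A2 and S100A10. S100P was under 1 CPM in empty vector replicate 2 and passed the filter only with the TAF1C libraries, where it was high. Of 10 tested annexins, 4 were raised: ANXA5, ANXA2, ANXA6 and ANXA11. Over all 18402 genes tested with edgeR at an adjusted p under 0.05, 15.9% were raised and 22.6% lowered. The median log2 fold change was 0.75 for the tested S100 genes and 0.29 for the tested annexins, beside -0.10 for all tested genes. At an unadjusted p under 0.05, 11 members were higher and 1 was lower by edgeR, beside 9105 of all 18402 tested genes in either direction. DESeq2 raised 11 and lowered 0 at its adjusted threshold, beside 20.0% and 23.9% of all genes. Every TAF1C library lay above every empty vector library for 12 of the 20, a pattern held by 29.8% of all tested genes, and below for 2 of them, against 34.4% of all tested genes. Leaving out libraries moved the members and all genes together. Counts without an empty vector library rest on the spread among the TAF1C libraries alone. Without empty vector replicate 1, 11 of 18 tested members were raised and 1 lowered, beside 29.0% and 29.5% of all genes. Without replicate 2, 13 of 20 were raised and 1 lowered, beside 35.8% and 34.0% of all genes. With a TAF1C library left out, 6 or 7 of 19 or 20 members were raised, beside 5.84% to 6.48% of all genes.

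**Figure D1:**
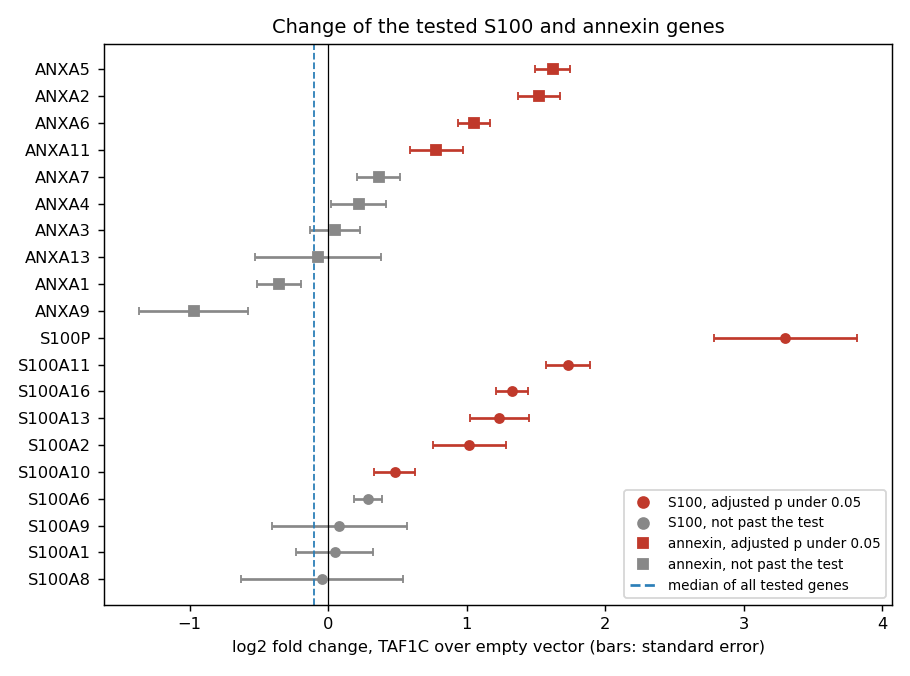
Fitted log2 fold change of the 20 tested members, TAF1C over empty vector, with bars for the standard error, circles for S100 genes and squares for annexins, and red for an adjusted p under 0.05. The raised members run from S100A10 at 0.48 to S100P at 3.30, ANXA1, ANXA9, ANXA13 and S100A8 lie left of 0, and the dashed line marks the median of all tested genes at -0.10.

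As a share of all gene counts the 12 annexins took 0.0901% and 0.0896% in the empty vector pair, against 0.170%, 0.171% and 0.175% in the TAF1C libraries. The 19 S100 genes took 0.0183% and 0.0165%, against 0.0260%, 0.0253% and 0.0261%. In scaled units the summed annexin level was 758 and 899 CPM against 1804, 1819 and 1833 CPM, and the summed S100 level was 154 and 165 CPM against 276, 269 and 273 CPM. For either family the groups did not overlap, and the libraries labelled TAF1C lay close together. The make-up of each family differed between groups as well. ANXA2 held 39.1% and 37.8% of annexin counts in the empty vector pair, against 50.1%, 50.8% and 49.6% in the TAF1C libraries, while ANXA1 held 14.8% and 16.3% and then 5.14%, 6.14% and 5.40%. S100A6 held 40.7% and 38.1% of S100 counts, against 28.6%, 27.8% and 27.9%, while S100P held 1.42% and 0.426% and then 4.78%, 5.35% and 5.49%. These shares are of counts, not corrected for transcript length.

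To show start regions of members that behaved differently, the 250 bases before the RefSeq start on GRCh38.p14 are given for 4 raised members (S100P, S100A11, ANXA2, ANXA5), for ANXA1, which was not raised, and for S100A9, an abundant S100 of myeloid cells that stayed at or under 2.73 CPM here. They lie at chr4:6693628-6693877 (plus strand), chr1:152037005-152037254 (minus), chr15:60397987-60398236 (minus), chr4:121696981-121697230 (minus), chr9:73151615-73151864 (plus) and chr1:153357604-153357853 (plus). Capitals mark matches, on either strand, to a TATA box (TATAAA), AP-1 (TGANTCA), SP1 (GGGCGG), TEAD (GGAATG) or a MYC E-box (CACGTG). An NF-kB consensus was also searched and has no match in these windows.
S100P: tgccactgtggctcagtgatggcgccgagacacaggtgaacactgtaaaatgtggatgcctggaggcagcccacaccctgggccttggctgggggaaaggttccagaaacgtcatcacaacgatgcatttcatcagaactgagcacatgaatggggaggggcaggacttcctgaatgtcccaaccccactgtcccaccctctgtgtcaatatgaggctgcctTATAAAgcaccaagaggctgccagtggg
S100A11: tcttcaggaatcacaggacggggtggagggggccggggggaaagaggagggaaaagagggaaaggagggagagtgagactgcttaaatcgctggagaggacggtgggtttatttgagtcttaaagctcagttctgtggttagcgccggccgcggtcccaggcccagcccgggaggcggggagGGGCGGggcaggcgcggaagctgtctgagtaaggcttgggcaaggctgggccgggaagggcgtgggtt
ANXA2: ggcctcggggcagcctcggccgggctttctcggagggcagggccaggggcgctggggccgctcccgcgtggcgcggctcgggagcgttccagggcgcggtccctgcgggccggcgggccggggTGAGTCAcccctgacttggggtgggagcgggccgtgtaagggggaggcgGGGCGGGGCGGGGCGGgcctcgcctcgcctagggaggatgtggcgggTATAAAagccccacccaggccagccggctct
ANXA5: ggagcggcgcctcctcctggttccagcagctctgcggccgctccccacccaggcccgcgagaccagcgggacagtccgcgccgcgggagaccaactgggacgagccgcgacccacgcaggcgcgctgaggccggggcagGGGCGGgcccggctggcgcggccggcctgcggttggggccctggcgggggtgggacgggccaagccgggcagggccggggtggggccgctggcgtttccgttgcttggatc
ANXA1: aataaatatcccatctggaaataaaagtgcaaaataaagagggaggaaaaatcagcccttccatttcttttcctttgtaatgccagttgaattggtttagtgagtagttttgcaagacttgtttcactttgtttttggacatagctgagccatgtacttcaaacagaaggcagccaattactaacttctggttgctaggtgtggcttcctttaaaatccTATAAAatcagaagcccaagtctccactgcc
S100A9: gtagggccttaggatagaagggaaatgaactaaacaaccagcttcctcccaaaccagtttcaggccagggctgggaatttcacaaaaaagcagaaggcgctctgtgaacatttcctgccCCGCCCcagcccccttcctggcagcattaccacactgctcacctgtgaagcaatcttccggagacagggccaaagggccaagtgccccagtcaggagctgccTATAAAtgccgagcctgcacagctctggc

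The letters of a TATA box began 28 bases before the start of S100P, 31 before ANXA1 and ANXA2 and 29 before S100A9, and were not found before S100A11 or ANXA5. ANXA2 held 3 overlapping SP1 matches, the farthest beginning 78 bases before its start, and 1 AP-1 match 127 bases before it. S100A11 and ANXA5 each held 1 SP1 match, at 68 and 111 bases, and S100A9 held 1 at 131. RefSeq windows of 300 bases, from 250 before to 50 after the start, matched 28 of the 31 members through 39 windows. Of these windows 35.9% held the TATA letters, against 11.5% of 35116 windows of all genes, and 35.9% held the SP1 letters, against 45.0%. AP-1 letters stood in 12.8% of member windows and 7.71% of all, TEAD in 7.69% and 14.0%, the MYC E-box in 5.13% and 7.26%, and NF-kB in 7.69% and 1.91%. The 3 NF-kB windows came from 2 members, ANXA11 and ANXA4. Some windows of a gene overlap and share a match, as for NF-kB in ANXA11 and TATA in S100A8. Counting a member once if any of its windows matched, SP1 letters were in 8 of 10 raised members, in 4 of 9 tested members that were not called and in 1 of 9 members too low to test, beside 48.3% of all genes. TATA letters were in 4 of 10, 3 of 9 and 6 of 9, beside 14.0% of all genes. A match of letters is a description and not a binding site.

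S100P, a secreted S100 protein that binds ezrin and RAGE, had the largest fold change of the members. S100P (ENSG00000163993) was at 2.17 and 0.705 CPM with the empty vector and 13.2, 14.4 and 15.0 CPM with TAF1C. The 3 TAF1C libraries were alike and all above the empty vector pair, which differed 3.08-fold. The means were 1.44 ± 1.04 CPM (SD, n = 2) and 14.2 ± 0.910 CPM (SD, n = 3), with a log2 fold change of 3.30 ± 0.51 (SE; adjusted p = 0.00601. with edgeR) Its size rested on the empty vector library used: the log2 fold change was 4.26 without replicate 1 and 2.67 without replicate 2. S100P passed the test under each of the 11 alternatives.

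S100A11, a partner of annexin A1, and S100A16, a broadly expressed S100 protein, rose with little spread. S100A11 (ENSG00000163191) was at 9.40 and 11.1 CPM with the empty vector and 36.4, 32.0 and 34.1 CPM with TAF1C. This was 3.33-fold, with a log2 fold change of 1.73 ± 0.16 (SE; adjusted p = 0.00117. with edgeR) S100A16 (ENSG00000188643) was at 20.7 and 20.5 CPM and then at 52.6, 50.3 and 51.8 CPM. Its empty vector libraries were nearly equal, and the log2 fold change was 1.33 ± 0.11 (SE; adjusted p = 0.000944. with edgeR) Each passed under every alternative run. Adding the counts of pseudogenes named after S100A11 changed its log2 fold change to 1.66.

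S100A13, which helps to release FGF1 and interleukin-1 alpha from cells, and S100A2, a p53-binding S100 protein of basal epithelium, also rose. S100A13 (ENSG00000189171) was at 6.41 and 8.81 CPM with the empty vector and 17.0, 18.0 and 18.7 CPM with TAF1C, and its log2 fold change was 1.23 ± 0.21 (SE; adjusted p = 0.00820 with edgeR). Its locus overlaps S100A1 and CHTOP in RefSeq, and whether the counting used strand was not stated. S100A1 (2.48 to 2.82 CPM in all libraries) was not called and CHTOP was lowered, with a log2 fold change of -0.46. S100A2 (ENSG00000196754) was at 3.10 and 4.16 CPM and then 7.97, 6.88 and 7.21 CPM, a log2 difference of 1.02 ± 0.26 (SE; adjusted p = 0.0293 with edgeR). The groups did not overlap for either gene. The S100A2 call was lost with no filter (adjusted p = 0.0735) and without any single TAF1C library (0.126, 0.0965 and 0.113 without replicates 1, 2 and 3), at a log2 fold change of 0.96 to 1.07, and that of S100A13 without replicate 2 or 3 (0.0514 and 0.0543). Quantile normalization gave larger changes, of 1.80 for S100A2 and 1.88 for S100A13.

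S100A10 and S100A6, the S100 genes with the most counts, moved least among those above 10 CPM. S100A10, also called p11, is the light chain that holds annexin A2 at the plasma membrane. S100A10 (ENSG00000197747) was at 38.8 and 50.1 CPM with the empty vector and 61.4, 65.1 and 59.6 CPM with TAF1C, and its log2 fold change of 0.48 ± 0.15 (SE) barely passed (edgeR adjusted p = 0.0471). All TAF1C libraries were higher, but the call was lost under 7 of 11 alternatives, including RLE size factors (adjusted p = 0.0547), library totals (0.0657) and each omission of a TAF1C library (0.147, 0.156 and 0.129 without replicates 1, 2 and 3), and the log2 fold change was 0.24 without empty vector replicate 1. S100A6, or calcyclin, is a marker of proliferating cells that binds annexin A11. S100A6 (ENSG00000197956) was at 62.4 and 63.1 CPM and then 79.0, 74.7 and 76.3 CPM, without overlap, at a log2 fold change of 0.29 ± 0.10 (SE) that did not pass (edgeR adjusted p = 0.0664). It passed with DESeq2 (adjusted p = 0.0277), and its log2 fold change was 0.21 and 0.26 without empty vector replicates 1 and 2.

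**Figure D2:**
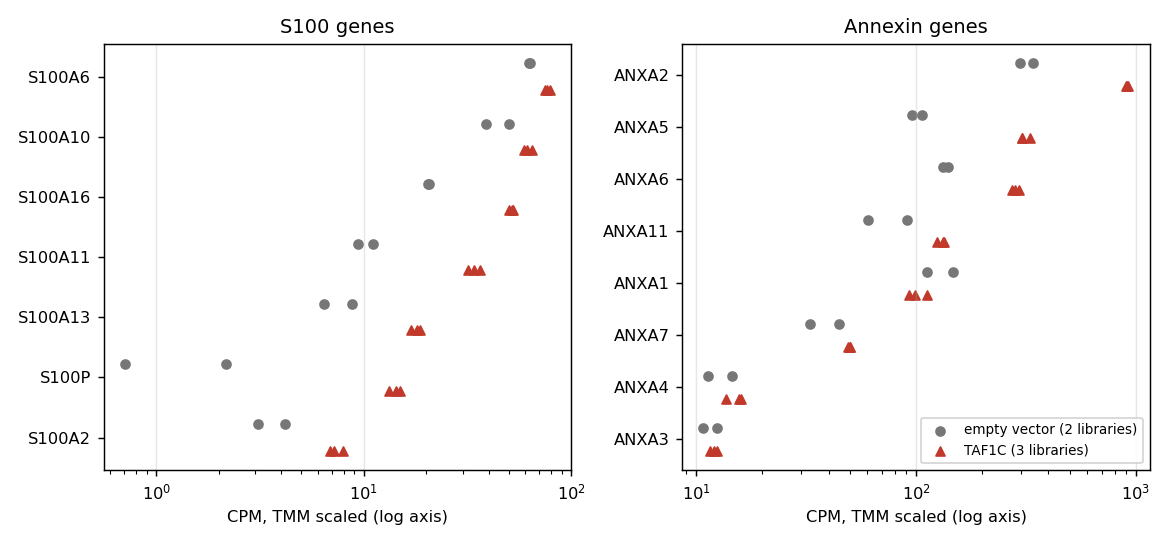
Level of the 15 members that reached 10 CPM in any library or were raised, in TMM-scaled CPM on a log axis, with grey circles for the 2 empty vector libraries and red triangles for the 3 TAF1C libraries. S100P shows the widest gap between the groups and the widest spread within the empty vector pair, and the ANXA3 and ANXA4 points of the groups overlap.

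The S100 genes of inflammation and of other tissues stayed low in all libraries. S100A8 and S100A9, which form calprotectin in neutrophils and monocytes, ranged over 0.613 to 1.69 CPM and 1.11 to 2.73 CPM across the 5 libraries. For S100A8 and S100A9 the groups overlapped, with log2 fold changes of -0.04 ± 0.58 (SE) and 0.08 ± 0.49 (SE). The 9 neutrophil and monocyte markers summed to 36.4 and 14.6 CPM with the empty vector and 23.1 to 28.2 CPM with TAF1C. The 9 S100 genes too low to test were S100A3, S100A4, S100A5, S100A7, S100A12, S100A14, S100B, S100G and S100Z, with 0 to 67 counts per library. The highest value among them was 2.47 CPM, for S100A4 in empty vector replicate 1. S100A4, which binds non-muscle myosin and is known from metastasis, was at 0.881 CPM in the other empty vector library and 0.792, 0.992 and 0.705 CPM with TAF1C. S100Z had 0 counts in the empty vector libraries, which allows up to 0.111 and 0.106 CPM (3 counts, counting error only), and 4, 2 and 5 counts with TAF1C. S100B, the S100 protein of glia and melanocytes, had 8 and 2 counts in the empty vector pair, against 11, 5 and 4. Over the same libraries the 9 glia, Schwann cell and melanocyte markers summed to 892 and 167 CPM with the empty vector and 24.8 to 29.0 CPM with TAF1C, mostly from DCT at 814 and 146 CPM in the empty vector pair.

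Along chromosome 1, 15 of the 19 S100 genes stand in 1 cluster, in the RefSeq order S100A10, S100A11, S100A9, S100A12, S100A8, S100A7, S100A6, S100A5, S100A4, S100A3, S100A2, S100A16, S100A14, S100A13 and S100A1. Of the 9 tested there, 5 were raised, beside 15.9% of all tested genes. These were S100A10 and S100A11 at one end, and S100A2, S100A16 and S100A13 toward the other, where S100A1 stands last. S100A12, S100A7, S100A5, S100A4, S100A3 and S100A14 were too low to test, so much of the middle has no value. S100A14, between S100A16 and S100A13, stayed at 0.211 to 0.904 CPM. Between S100A11 and S100A9 lie 47 other protein-coding genes, among them the cornified envelope genes. A list of 37 neighbouring genes held 12 that could be tested, of which 9 were not called and 3 lowered, a share near the 22.6% of all tested genes: GATAD2B (-0.91 ± 0.16), DENND4B (-0.55 ± 0.10) and CHTOP (-0.46 ± 0.11), each a log2 fold change with its SE. The most abundant of the list was ILF2, a double-stranded RNA binding protein, at 158 and 310 CPM with the empty vector and 231, 246 and 241 CPM with TAF1C. FLG, which encodes filaggrin, was at 23.8 and 5.53 CPM and then 15.1, 14.7 and 14.1 CPM. The share of lowered genes in this list is given for the reported fit only. Calls without an empty vector library rest on the spread among the TAF1C libraries alone and are not compared for this list.

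**Figure D3:**
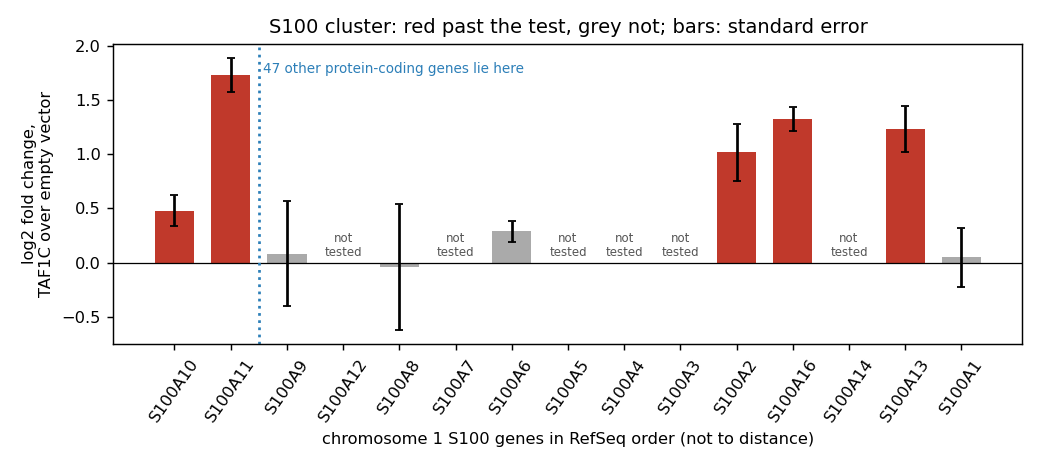
Log2 fold change of the 15 S100 genes on chromosome 1 in RefSeq order, spaced evenly and not by distance, with bars for the standard error, red for raised genes, grey for tested genes that were not called, and text for genes too low to test. The 5 raised genes stand toward either end, with S100A9, S100A8 and S100A6 between them and S100A1 after them not called.

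Annexin A5, which binds exposed phosphatidylserine and is used to stain dying cells, rose most among the annexins. ANXA5 (ENSG00000164111) was at 96.0 and 106 CPM with the empty vector and 303, 303 and 329 CPM with TAF1C. The groups lay 3.08-fold apart, with a log2 fold change of 1.62 ± 0.13 (SE; adjusted p = 0.000739. with edgeR) ANXA2, the annexin that carries S100A10 and serves as a site of plasminogen activation, followed. ANXA2 (ENSG00000182718) was at 296 and 340 CPM and then 904, 924 and 910 CPM, a log2 fold change of 1.52 ± 0.15 (SE; adjusted p = 0.00147 with edgeR). The highest TAF1C library was 1.02-fold the lowest, and the smallest change of ANXA2 was 1.01, with quantile normalization. ANXA2P2, a processed pseudogene close in sequence to ANXA2, followed it at 9.62 and 13.0 CPM and then 36.8, 37.7 and 33.8 CPM, so some reads may be shared. Adding pseudogene counts left the log2 fold change of ANXA2 at 1.52.

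ANXA6 and ANXA11 were the other raised annexins. ANXA6, which has a duplicated annexin core and organises cholesterol and calcium at membranes, was at 133 and 140 CPM with the empty vector and 294, 274 and 282 CPM with TAF1C. For ANXA6 (ENSG00000197043) the log2 fold change was 1.06 ± 0.12 (SE; adjusted p = 0.00198 with edgeR), and it passed under all 11 alternatives, as ANXA5 did. ANXA11, which has a long proline-rich tail and can tether RNA granules to lysosomes, was at 60.6 and 91.1 CPM and then 133, 124 and 134 CPM. For ANXA11 (ENSG00000122359) the log2 fold change was 0.78 ± 0.19 (SE; adjusted p = 0.0248 with edgeR). The groups did not overlap, but its call was lost with no filter (adjusted p = 0.0596) and without any single TAF1C library (0.0890, 0.0830 and 0.0900 without replicates 1, 2 and 3), where the log2 fold change stayed at 0.77 to 0.82. The change was 0.45 without empty vector replicate 1.

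ANXA1, an inhibitor of phospholipase A2 and a ligand of formyl peptide receptors, did not follow the rise of ANXA2 and ANXA5. It was at 112 and 147 CPM with the empty vector and 92.8, 112 and 99.0 CPM with TAF1C. The lowest empty vector value and the highest TAF1C value were nearly equal, and the log2 fold change of -0.35 ± 0.16 (SE) did not pass (edgeR adjusted p = 0.129). ANXA1 was called lower with library totals (-0.55, edgeR adjusted p = 0.0134) and with quantile normalization (-0.57, limma adjusted p = 0.0161). Its log2 fold change was -0.60 without empty vector replicate 1. ANXA7, also called synexin, was at 32.8 and 44.5 CPM and then 50.2, 50.1 and 48.9 CPM. The ANXA7 values did not overlap, and its log2 fold change of 0.36 ± 0.16 (SE) did not pass (edgeR adjusted p = 0.118). The log2 fold change of ANXA7 was 0.57 without empty vector replicate 2.

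ANXA3, known from neutrophil granules, and ANXA4, an annexin of epithelial membranes, overlapped between groups. ANXA3 was at 10.8 and 12.4 CPM with the empty vector and 12.4, 12.1 and 11.6 CPM with TAF1C. ANXA4 was at 11.3 and 14.6 CPM and then 13.6, 15.9 and 15.6 CPM, with a log2 fold change of 0.22 ± 0.20 (SE). Without empty vector replicate 2 that change was 0.38. ANXA9, an annexin that has lost typical calcium binding, was at 4.05 and 2.68 CPM and then 1.24, 2.28 and 1.63 CPM. Its log2 fold change of -0.97 ± 0.39 (SE) did not pass (edgeR adjusted p = 0.0986) and was -1.27 without empty vector replicate 2. ANXA13, the intestinal annexin, stayed at 0.670 to 1.14 CPM in all libraries. ANXA8 and ANXA10 were too low to test, at 1 to 11 counts per library, and reads of ANXA8 could be split with its near-identical copies ANXA8L1 and ANXA8L2, which were as low.

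Known S100 and annexin pairs did not keep a constant count ratio. S100A10 had 13.1 and 14.8 counts per 100 ANXA2 counts in the empty vector pair, against 6.79, 7.04 and 6.55 in the TAF1C libraries. S100A11 had 8.40 and 7.60 counts per 100 ANXA1 counts and then 39.3, 28.6 and 34.5, a difference in the other direction. S100A6 had 103 and 69.2 counts per 100 ANXA11 counts and then 59.4, 60.0 and 57.0. In each pair the groups did not overlap. Among all tested genes, the levels in the TAF1C libraries were all above the empty vector pair for 29.8% and all below for 34.4%. Ratios of other gene pairs were not computed, so separation is not shown to be particular to these pairs. These ratios need no scaling between libraries, and they compare libraries only, since the genes differ in transcript length.

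**Figure D4:**
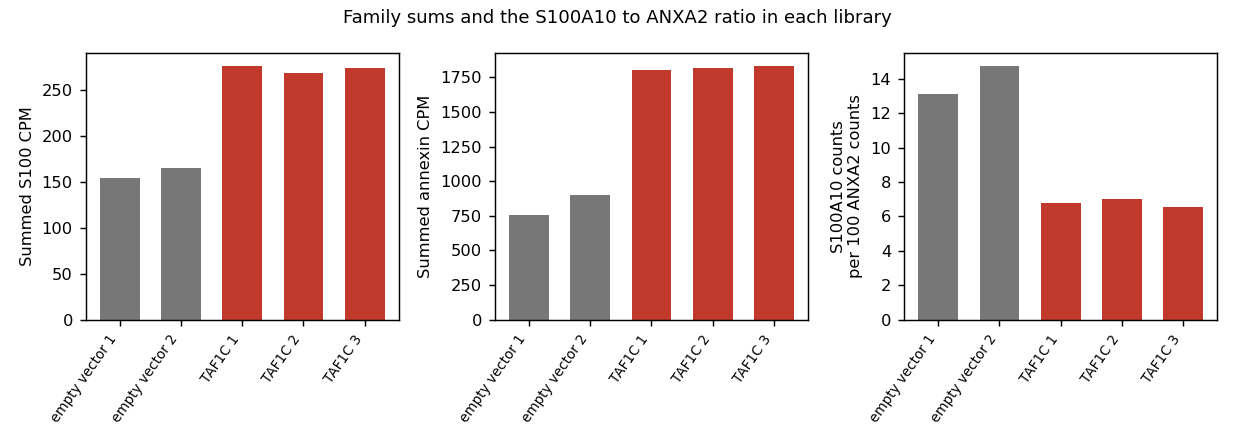
Summed S100 level, summed annexin level (both in TMM-scaled CPM) and S100A10 counts per 100 ANXA2 counts in each library, with grey bars for the empty vector and red bars for TAF1C. Summed annexins stand at 758 and 899 CPM with the empty vector and at 1804 to 1833 CPM with TAF1C, and the S100A10 ratio at 13.1 and 14.8 and then 6.55 to 7.04.

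The lists of related genes that follow stand beside 15.9% raised and 22.6% lowered and a median of -0.10 over all tested genes, or 29.0% and 29.5% without empty vector replicate 1 and 35.8% and 34.0% without replicate 2. Among 13 receptors and sensors of secreted S100 proteins and annexins, 5 of 8 tested were raised and 1 was lowered, with a median log2 fold change of 0.59. TLR4, a receptor for S100A8 and S100A9, was at 24.9 and 26.2 CPM with the empty vector and 115, 133 and 117 CPM with TAF1C, a log2 fold change of 2.25 ± 0.13 (SE; adjusted p = 0.000332 with edgeR). ALCAM, an adhesion molecule that also binds S100B, rose by 1.42 ± 0.12 (SE) on the log2 scale, and SCARB1, a lipoprotein receptor, by 0.76 ± 0.12 (SE). The most abundant of the list, BSG, an S100A9 receptor also known as CD147, was at 363 and 782 CPM and then 536, 446 and 510 CPM, with overlap between the groups. AGER, which encodes RAGE, had 0 counts in every library, and the annexin A1 receptor gene FPR1 was at 1.22 and 0.282 CPM and then 2.97, 3.18 and 3.50 CPM. FPR1 is among the raised genes and passed the filter only with the TAF1C libraries, where it was higher. Without empty vector replicate 1 this list had 6 raised and 2 lowered genes, and without replicate 2 it had 7 and 1.

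In the plasminogen system around the annexin A2 and S100A10 complex, 4 of 8 tested genes were raised and the other 4 not called, with a median log2 fold change of 0.78. PLGRKT, a membrane receptor for plasminogen, rose by 0.75 ± 0.16 (SE) and PLAU, the urokinase activator, was at 4.50 and 3.88 CPM and then 7.75, 7.64 and 9.81 CPM. ENO1, a glycolytic enzyme that binds plasminogen at the cell surface, was the most abundant, at 1081 and 1630 CPM and then 2368, 2298 and 2375 CPM.

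Of 28 genes for intracellular partners, all tested, 13 were raised and 1 lowered, with a median of 0.57. EGFR, a growth factor receptor whose traffic annexins modulate, rose by 2.16 ± 0.14 (SE), moesin (MSN), a membrane-actin linker, by 1.48 ± 0.12 (SE), and the liprin PPFIBP1, a partner of S100A4, by 1.23 ± 0.11 (SE). AHNAK, the large scaffold bound by the annexin A2 and S100A10 complex, was at 1063 and 1185 CPM with the empty vector and 2374, 2572 and 2495 CPM with TAF1C, while its paralog AHNAK2 was the lowered gene, with a log2 fold change of -1.50 ± 0.22 (SE). Without empty vector replicate 1 the partners had 15 raised and 5 lowered genes, and without replicate 2 they had 22 and 5. In the list for membrane repair and calcium-regulated membrane proteins, 10 of 17 tested genes were raised and 1 lowered, with a median of 0.80. Myoferlin (MYOF), a fusion protein of membrane repair, rose by 1.38 ± 0.11 (SE) and EHD2, a protein of caveolae, by 1.15 ± 0.12 (SE). CAV1, the caveolar coat protein, was at 186 and 224 CPM and then 440, 469 and 458 CPM. SYT7, a calcium sensor of exocytosis, was the lowered one, at 20.8 and 23.5 CPM and then 1.92, 1.28 and 1.93 CPM. The repair list had 13 raised and 2 lowered genes without empty vector replicate 1, and 14 and 2 without replicate 2.

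Of the other EF-hand calcium sensors, 7 of 19 tested genes were raised and 3 lowered, with a median of 0.22. EFHD2, an actin-binding EF-hand protein, rose by 1.14 ± 0.16 (SE), and SDF4, of the Golgi lumen, by 0.72 ± 0.14 (SE). EFHD1, a mitochondrial relative of EFHD2, had a log2 fold change of -3.11 ± 0.43 (SE). CALM3, a calmodulin gene and the most abundant of the list by its mean over the 5 libraries, was at 167 and 216 CPM with the empty vector and 302, 272 and 305 CPM with TAF1C, and it was raised by 0.61 ± 0.16 (SE). CALM2, which encodes the same protein, was at 173 and 345 CPM and then 214, 235 and 202 CPM, within the range of the empty vector pair. The lowered genes included RCVRN, the photoreceptor calcium sensor recoverin, at 253 and 1.06 CPM and then 0.408 to 0.763 CPM, so that its fall rested on empty vector replicate 1. Without that library 7 of 17 tested genes were raised and 7 lowered, and without replicate 2, 12 and 4 of 18.

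**Figure D5:**
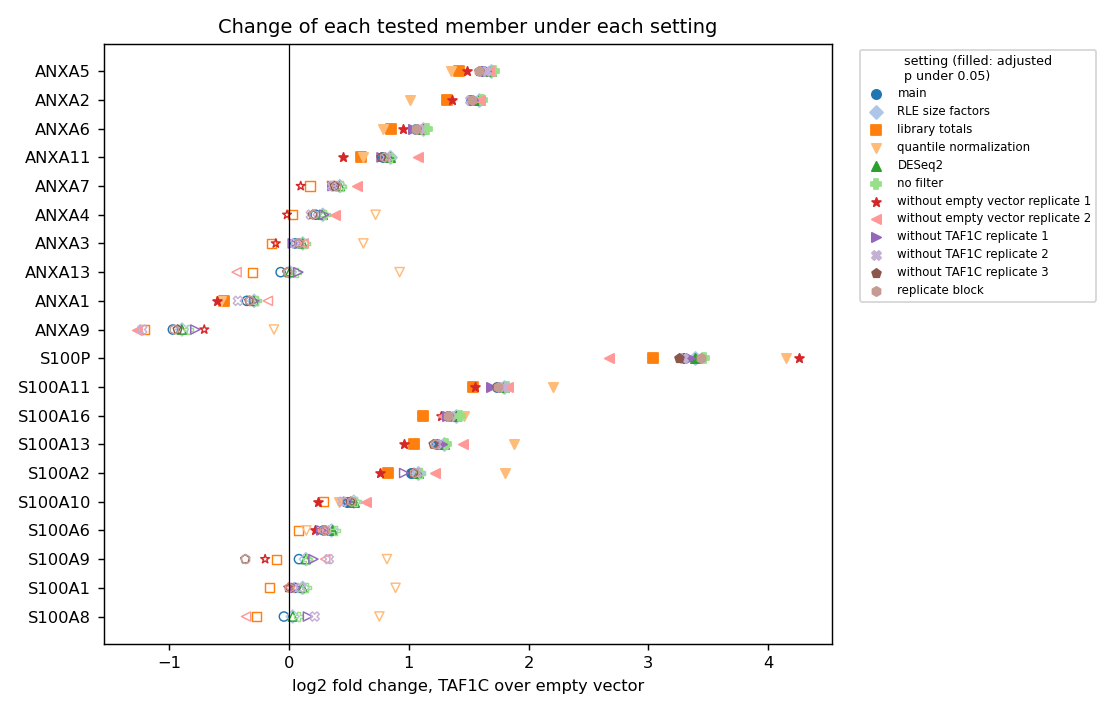
Log2 fold change of each tested member under the reported fit and each alternative, with filled symbols for an adjusted p under 0.05 and open symbols otherwise. ANXA2, ANXA5, ANXA6, S100A11, S100A16 and S100P stay filled and right of 0 throughout, while S100A1, S100A8, S100A9, ANXA3, ANXA4 and ANXA13 have symbols on either side of 0.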

How the data were processed

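NEBNext Ultra libraries were made from mirVana RNA after ribosomal depletion, per the labels' protocols. The submitters' processing notes name hg19 as the build and, without a role for any, DESeq2, HISAT2, Cufflinks 2.2.1, Bowtie2 2.2.4 and Trimmomatic 0.36. The deposited tables hold raw counts per Ensembl gene, as whole numbers whose totals differ between libraries. The counter, the annotation, the use of strand and the treatment of reads that match several genes are not given in the sources used here. The tables hold no coordinates, and RefSeq tables of GRCh38.p14 gave gene order, overlaps and start regions.

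Rows were summed by symbol (236 of 55771 symbols had more than 1 row, no member among them). Genes with at least 1 CPM in at least 2 of the 5 long RNA libraries entered edgeR 4.0.16 (R 4.3.3; quasi-likelihood F test) with TMM scaling and no covariate, two-sided, with Benjamini-Hochberg adjustment over all 18402 genes and a threshold of 0.05. The SE is the log2 fold change divided by the root of the F statistic. The fit was also run on simulated counts with the same spread in both groups. The spread of these libraries was unequal, so that run cannot show how the fit behaves here. Alternatives were RLE factors, library totals, quantile normalization (limma 3.58.1), DESeq2 1.42.0, no filter, each library left out, a replicate block and added pseudogene counts. Plots used Python 3.11.15 and matplotlib 3.10.9. A member is given in every library where it reached 10 CPM or passed. Of each related list the text names up to 3 genes with the smallest adjusted p and the most abundant one, and others after their values were seen (FPR1, AGER, FLG, AHNAK2, CALM2, RCVRN, ANXA2P2). Members, lists and alternatives were chosen with earlier results of these data known. One gene of the plasminogen list is not reported here. The small RNA libraries were not used.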

Additional observations from a re-analysis of the deposited data

How the results depend on the processing

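ANXA2, ANXA5, ANXA6, S100A11, S100A16 and S100P kept their direction and an adjusted p under 0.05 under every alternative run for them, and all 10 raised members kept their direction. Of 217 member results under an alternative, 168 kept direction and side of the threshold. Raised S100 genes numbered 3 to 7 and raised annexins 3 to 6 with 1 library left out, and lowered annexins 0 or 1. Lowered annexins also numbered 1 with library totals and 1 with quantile normalization, ANXA1 each time. Over all genes, leaving out 1 library gave 1058 to 5966 raised and 1960 to 5665 lowered, 1817 were raised with no filter, and 2733 were lowered with quantile normalization. Of all called genes 41.3% were raised in the reported fit, 31.5% with library totals, 29.7% with no filter and 59.9% with quantile normalization. The median log2 fold change of all genes was -0.10 with TMM, -0.32 with library totals, -0.26 with no filter and 0.22 with quantile normalization. All 10 raised members lay above it each time. They were picked by the reported fit on these same counts, so this and their kept direction add no separate support. TAF1C was called lower with library totals (-0.36), and its log2 fold change was between -0.36 (without empty vector replicate 1) and -0.057 (without replicate 2) with 1 library left out.

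The replicate block, on replicates 1 and 2 of each group, raised 3 S100 genes and 1233 genes in all, and lowered 2521. It ended the calls of S100A13 (adjusted p = 0.0671), S100A2 (0.19989), S100A10 (0.172) and ANXA11 (0.0635). The labels tie the numbers to no shared batch, and the deviations of same-numbered libraries correlated at 0.04 and 0.14, which with 2 pairs does not settle whether the numbers pair the libraries.

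Members that were not called changed sign as follows. With RLE factors ANXA13 was at 0.0056 and S100A8 at 0.029, and with DESeq2 at 0.0058 and 0.031. With library totals ANXA3 was at -0.15, S100A1 at -0.16 and S100A9 at -0.10. With quantile normalization ANXA13 was at 0.92 and S100A8 at 0.75, and with no filter at 0.061 and 0.079. With the replicate block S100A9 was at -0.36. With 1 library left out the lowest and highest values were -0.44 and 0.076 for ANXA13, -0.11 and 0.12 for ANXA3, -0.018 and 0.38 for ANXA4, -0.0074 and 0.093 for S100A1, -0.36 and 0.21 for S100A8, and -0.37 and 0.33 for S100A9. The cause of these changes was not tested. S100A8 rested on 21 to 55 counts per library, S100A9 on 38 to 89 and ANXA13 on 19 to 38.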
